A study of Homo sapiens with 3 samples.

Results

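The cadherin switch and its regulators were followed as 10 genes of the 18331 listed in the deposited tables. The genes were taken by name: the classical cadherins CDH1, CDH2 and CDH3, the intermediate filament gene VIM, the transcription factors ZEB1, ZEB2, SNAI1, SNAI2 and TWIST1, and the splicing regulator ESRP1. All 10 matched an Entrez identifier, and all 10 passed the filter on low counts that left 14016 genes to test. The cells were PC-3, a prostate cancer line grown from a bone metastasis, and RNA was taken 7 days after a lentivirus delivered a hairpin. KMT2D shRNA was given in 2 libraries, here called library 1 and library 2 after their labels, and control shRNA in 1 library. The series' design text speaks of retinal profiles although it names PC-3, and the sample labels were followed. KMT2D encodes an enhancer histone methyltransferase, and a short hairpin RNA (shRNA) is designed to lower the RNA it matches. Cells of both groups carried lentivirus and a hairpin, so no library of uninfected cells stands behind these values. The titles of libraries 1 and 2 read KMT2D shRNA1 and KMT2D shRNA2, and that of the control reads Control shRNA. The number may thus name a hairpin or a replicate, and separate cultures are not stated. How far libraries 1 and 2 differ may therefore be technical or may include a difference between hairpins. The p-values and SDs reach no further than these libraries. With a single control library, the spread among control cultures is unknown and control values carry no SD.

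In epithelial tissue, E-cadherin (the product of CDH1) joins neighbouring cells and is held to the actin skeleton through catenins. During an epithelial-mesenchymal transition (EMT), E-cadherin is lost and N-cadherin (CDH2) and vimentin (VIM) appear, a change called the cadherin switch. ZEB, SNAI and TWIST proteins bind short DNA motifs called E-boxes, and several of them repress CDH1. ESRP1 maintains splice forms typical of epithelial cells and is repressed by ZEB1 in several cancer lines. In prostate cancer, N-cadherin is known from invasive and castration-resistant tumours.

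The library totals were 5157550 and 5123817 estimated counts with KMT2D shRNA and 5559504 with control shRNA. KMT2D itself was not lower in the deposited counts: it had 107 and 138 CPM (CPM are counts relative to library size, scaled between libraries) with KMT2D shRNA, against 100.1 CPM in the control. Its log2 fold change of 0.29 (SE 0.18) missed the threshold (edgeR adjusted p = 0.227), and it was -0.69 (adjusted p = 0.0142) once a trend with transcript length was removed, and -0.59 (adjusted p = 0.0744) with a GC trend removed as well. Every direction is therefore given for the libraries as labelled, not for a loss of KMT2D. Keratin genes KRT8, KRT18 and KRT19 were at 193 to 421 CPM with KMT2D shRNA and at 331 to 699 CPM in the control, and KLK3 was in no table. The control library also held far more RNA of 6 interferon-induced genes, with 284 and 266 CPM in sum with KMT2D shRNA against 9343 CPM in the control; the part of this difference in the values of the 10 genes was not tested. Of 7 leukocyte markers, CD3E was in no table and PTPRC had 1.34 and 2.17 CPM against 1.27 CPM, while the summed level was 70.5 and 78.6 CPM against 184.5 CPM, mostly CD68. CD68 fell by 1.56 in log2 units (edgeR adjusted p = 6.05e-10) and LYZ by 0.64 (edgeR adjusted p = 0.019). After removal of the length trend CD68 still passed (edgeR adjusted p = 3.18e-05) and LYZ did not (edgeR adjusted p = 0.29). Of 8 stromal markers, which summed to 426 and 448 CPM against 419 CPM, DCN and LUM had at most 3 counts in a library and COL1A1 held most of the sum. PDGFRA, a growth factor receptor on that list, had 39.0 and 47.1 CPM with KMT2D shRNA against 10.4 CPM and rose by 2.05 in log2 units (SE 0.25; adjusted p = 5.85e-09 in edgeR), or by 1.63 after removal of the length trend (edgeR adjusted p = 0.00019). Of 5 endothelial markers, VWF and CDH5 were in no table, and the sum was 135 and 102 CPM against 69.6 CPM, mostly KDR. KDR rose by 1.03 in log2 units (edgeR adjusted p = 6.15e-05), or by 0.65 after removal of the length trend (edgeR adjusted p = 0.0373). The part of these marker levels in the results was not tested.

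N-cadherin RNA rose in the libraries labelled KMT2D shRNA, ZEB1 RNA rose by less, and none of the 10 genes fell. Thus 2 of 10 passed edgeR's quasi-likelihood test at a Benjamini-Hochberg adjusted p under 0.05, where 31.0% of all tested genes did. By direction, 16.5% of all tested genes rose and 14.5% fell. The share among the 10 genes was thus not above that of the transcriptome. The median log2 fold change was 0.39 over the 10 genes and -0.01 over all tested genes, with values from -1.12 for ZEB2 to 1.18 for CDH2. Both KMT2D shRNA libraries lay above the control for 6 of the genes and below it for 2, while the control lay between them for CDH3 and SNAI1. Among all tested genes both libraries lay above the control for 41.5% and below it for 42.8%.

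Fold changes in this comparison rose with transcript length across genes, with Spearman coefficients of 0.456 in library 1 and 0.46 in library 2, so each gene is also given with that trend removed. With it removed, 3 of the 10 genes passed: CDH2 and SNAI2 rose and ZEB2 fell, where 16.4% of all tested genes passed, 7.99% upward and 8.45% downward. ZEB1, with transcripts of about 5890 bases, was then at 0.13 (edgeR adjusted p = 0.659). Of the 10 genes, CDH2 alone passed both with the trend and without it.

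**Figure D1:**
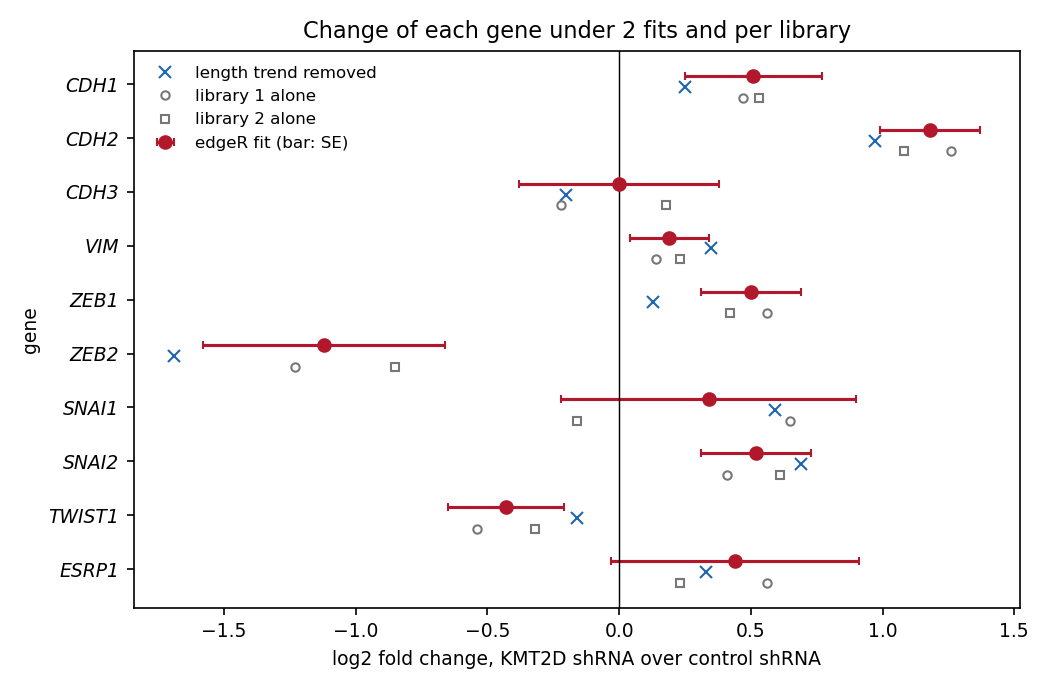
Log2 fold change of KMT2D shRNA over control shRNA (horizontal axis) for each of the 10 genes (vertical axis), with filled points and SE bars for edgeR's fit, crosses for the fit with the length trend removed, and open symbols for library 1 and library 2 each set against the control. CDH2 lies at 1.18 and 0.97 in the 2 fits, while ZEB1 drops to 0.13 and ZEB2 moves to -1.69 once the length trend is removed.

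Set in order by FPKM, a level per kilobase of transcript and per unit of library size, the 10 genes spanned a wide range. VIM stood first in every library, with 674 and 702 FPKM with KMT2D shRNA and 595 FPKM in the control, which made it the 60th, 54th and 109th gene by FPKM in these libraries. Behind it in the KMT2D shRNA libraries came CDH2 with 29.1 and 25.1 FPKM, then SNAI2 with 18.4 and 20.7 FPKM, and then TWIST1 and ZEB1, which changed places between the 2 libraries. In the control the order was TWIST1 with 16.1 FPKM, SNAI2 with 13.4 FPKM, CDH2 with 11.8 FPKM and ZEB1 with 7.94 FPKM. The counting intervals of TWIST1 and SNAI2 overlapped in the control (13.6 to 18.9 and 11.4 to 15.7 FPKM), as did those of SNAI2 and CDH2 (10.4 to 13.2 FPKM for CDH2), so these neighbours were not set apart there. In library 2 the intervals of CDH2 (23.0 to 27.2 FPKM) and SNAI2 (18.1 to 23.6 FPKM) overlapped too, and in both KMT2D shRNA libraries those of TWIST1 and ZEB1 did. CDH1 followed in every library, and SNAI1, CDH3 and ESRP1 lay below it between 1.01 and 2.83 FPKM with overlapping intervals. The interval of CDH1 overlapped that of SNAI1 in library 1 (3.01 to 4.57 and 1.83 to 4.18 FPKM). In the control the interval of CDH1 (2 to 3.25 FPKM) overlapped those of SNAI1 (0.96 to 2.73 FPKM) and CDH3 (1.08 to 2.12 FPKM). ZEB2 was last in every library, though in the control its interval (0.557 to 1.11 FPKM) overlapped that of ESRP1 (0.617 to 1.56 FPKM).

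**Figure D2:**
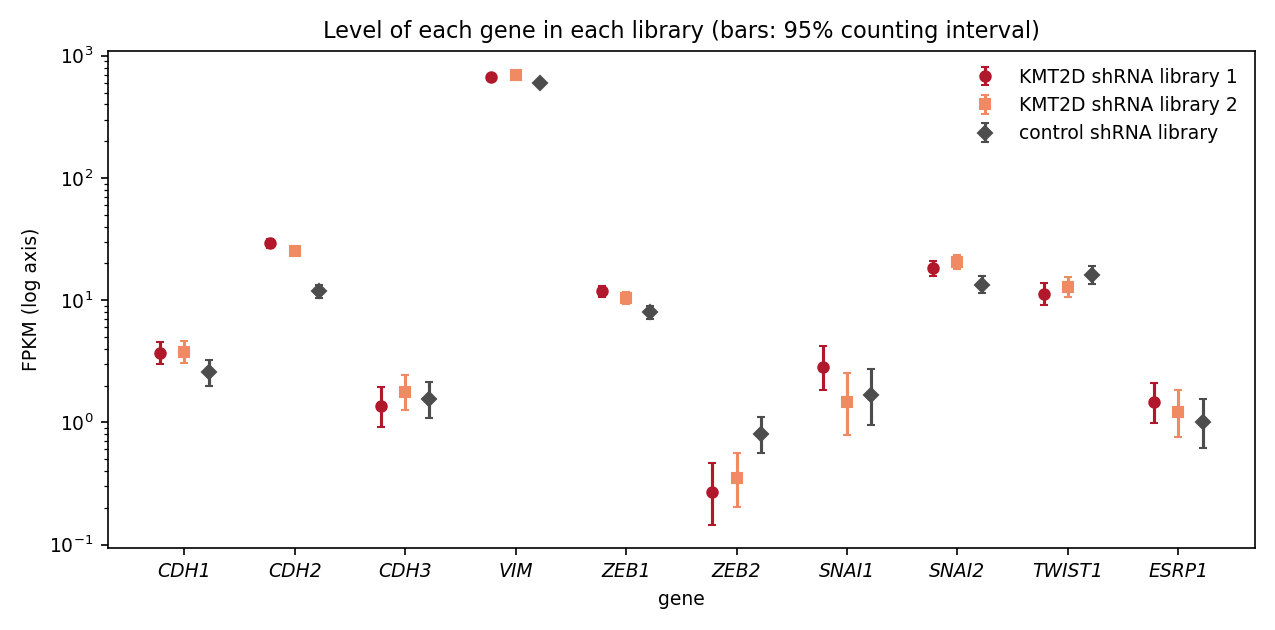
FPKM on a log axis for each of the 10 genes in KMT2D shRNA library 1 (circles), KMT2D shRNA library 2 (squares) and the control shRNA library (diamonds), with exact Poisson 95% intervals that cover counting error only. CDH2 and ZEB1 lie above the control in both KMT2D shRNA libraries, ZEB2 lies below it, and CDH3 and SNAI1 straddle it.

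Among the cadherins, CDH2 had 661 and 566 counts with KMT2D shRNA and 289 in the control. Scaled between libraries these were 126 and 112 CPM with KMT2D shRNA, against 52.5 CPM in the control. The 2 KMT2D shRNA libraries were each more than 2-fold above the single control library. Of all tested genes, 41.5% had both libraries above the control. In bulk RNA, more cells with CDH2 RNA and more of it per cell cannot be told apart, here or for any gene that follows. CDH2 averaged 119 ± 10.5 CPM (SD, n = 2) with KMT2D shRNA, and its log2 fold change was 1.18 (SE 0.19, edgeR adjusted p = 2.86e-06). Library 1 was 2.41 times the control, with a 95% interval of 2.09 to 2.77, and library 2 was 2.12 times the control, with 1.84 to 2.46; these intervals cover counting error only. The change was 0.97 after removal of the length trend (edgeR adjusted p = 0.0014). With limma on FPKM, where no gene of the table passed, CDH2 had an unadjusted p of 0.00535 and an adjusted p of 0.107 to 0.174 over 3 settings.

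The 2 genes whose pattern over the 3 libraries was nearest to that of CDH2, among 3928 genes of similar level, were HTT and CHML, at distances of 0.023 and 0.025 in centred log2 CPM. HTT had 178.5 and 161 CPM with KMT2D shRNA against 75.6 CPM in the control. The 3 libraries are few for such a likeness, and nothing about shared control follows from it.

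Because CDH2 carries the main change, its promoter windows are shown, each running from 250 bases before to 50 bases after an annotated transcript start, 5′ to 3′ on the gene's strand, with any E-box of the form CANNTG in capitals. They are RefSeq sequences of build GRCh38.p14, not of hg19, the build the submitters' processing notes name; the deposited values do not tell which start was used. CDH2 lies on the minus strand of chromosome 18.
CDH2 upstream start, chr18:28177081-28177380: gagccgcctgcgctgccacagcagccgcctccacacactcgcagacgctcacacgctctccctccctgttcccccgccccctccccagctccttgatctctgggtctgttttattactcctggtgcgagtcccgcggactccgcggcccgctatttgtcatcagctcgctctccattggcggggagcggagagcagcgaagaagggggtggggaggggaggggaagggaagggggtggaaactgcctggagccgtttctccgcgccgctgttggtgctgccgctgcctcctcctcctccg
CDH2 downstream start, chr18:28036592-28036891: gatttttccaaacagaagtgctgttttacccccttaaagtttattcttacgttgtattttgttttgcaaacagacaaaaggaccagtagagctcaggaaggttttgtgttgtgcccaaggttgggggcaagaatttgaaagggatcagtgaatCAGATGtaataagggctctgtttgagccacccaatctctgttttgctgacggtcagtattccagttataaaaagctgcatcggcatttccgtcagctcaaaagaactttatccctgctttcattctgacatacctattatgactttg
The upstream window holds no CANNTG on either strand (the motif reads the same on both), as is true of 31.3% of the 35116 windows in the table, and it is rich in CpG, with 23 CpG dinucleotides against a median of 14. The downstream window holds 4 CpG and a single E-box, CAGATG, which begins 97 bases before the start. CAGGTG and CACCTG, the E-box letters best known as ZEB and SNAI sites and each the reverse complement of the other, were in neither; they occur in 20.6% of all windows. A match is a description of letters and not a bound site.

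CDH1 was not lower in the KMT2D shRNA libraries. It had 93 and 94 counts with KMT2D shRNA and 70 in the control, or 17.8 and 18.5 CPM against 12.7 CPM. The control was the lowest of the 3 libraries. CDH1 averaged 18.2 ± 0.529 CPM (SD, n = 2) with KMT2D shRNA, and its log2 fold change of 0.51 (SE 0.26) missed the threshold (edgeR adjusted p = 0.128). Library 1 was 1.40 times the control (95% counting interval 1.01 to 1.93) and library 2 was 1.46 times (1.06 to 2.01). Over the alternatives the change of CDH1 ran from 0.21 to 0.53 and passed in none.

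CDH3, which encodes P-cadherin of basal epithelial cells, had 5.73 and 7.69 CPM with KMT2D shRNA and 6.72 CPM in the control. The control lay between the 2 libraries, and the log2 fold change was -0.00 (SE 0.38, edgeR adjusted p = 0.995). At 30 to 39 counts a library its ratio to the control had a counting interval of 0.509 to 1.42 in library 1 and 0.71 to 1.84 in library 2, so changes of this size would not have been detectable.

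Within each library CDH2 exceeded CDH1 per length. The FPKM ratio of CDH2 to CDH1 was 7.79 (95% counting interval 6.28 to 9.82) and 6.63 (5.31 to 8.32) with KMT2D shRNA, against 4.57 (3.48 to 5.98) in the control. N-cadherin RNA was thus already the more abundant in control cells. The ratio was 0.65 higher on the log2 scale with KMT2D shRNA, or 1.57-fold. No test of the ratio across libraries was run, and an exact permutation test could not have gone below p = 0.333. Against the control, the ratio was 1.72 times as high in library 1 (95% counting interval 1.21 to 2.45) and 1.46 times in library 2 (1.02 to 2.08). Against CDH3, CDH2 stood at 21.5 and 14.2 with KMT2D shRNA and at 7.63 in the control. The higher ratio of CDH2 to CDH1 came with CDH1 values that were themselves above the control, not below it.

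**Figure D3:**
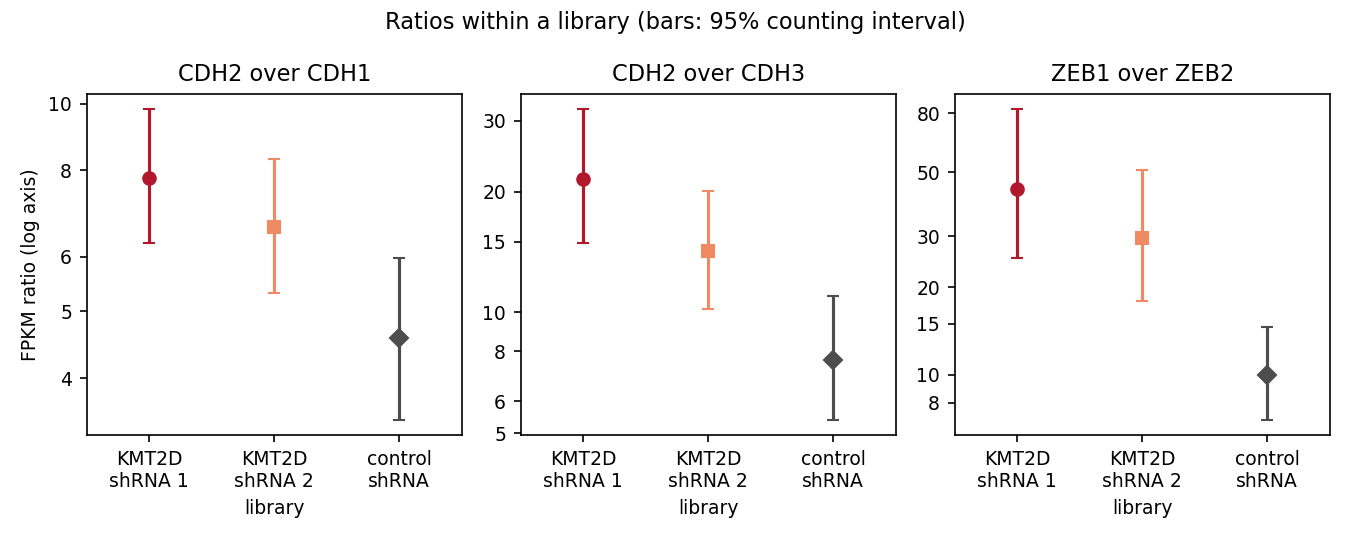
FPKM ratios within each library on log axes for CDH2 over CDH1, CDH2 over CDH3 and ZEB1 over ZEB2, with KMT2D shRNA libraries 1 and 2 left of the control and exact binomial 95% intervals that cover counting error only. All 3 ratios are higher in both KMT2D shRNA libraries than in the control, and ZEB1 over ZEB2 is 43.9 and 29.7 against 9.93.

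VIM, which encodes the main intermediate filament of mesenchymal cells, was abundant throughout. It had 7458 and 7723 counts with KMT2D shRNA and 7122 in the control, or 1426 and 1522 CPM against 1294 CPM. The control was the lowest of the 3 by a small margin, and the log2 fold change of 0.19 (SE 0.15) missed the threshold (edgeR adjusted p = 0.366). With the length trend removed the change was 0.35 (edgeR adjusted p = 0.13). With length and GC trends removed it was 0.39 (edgeR adjusted p = 0.0807). Counts this high leave little counting error, with ratios to the control of 1.10 (95% interval 1.07 to 1.14) and 1.18 (1.14 to 1.22).

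ZEB1 and ZEB2 encode related zinc-finger repressors of epithelial genes, and their values lay on opposite sides of the control, although no fit called both. ZEB1 had 69.8 and 63.3 CPM with KMT2D shRNA, against 47.0 CPM in the control. Both KMT2D shRNA libraries lay above the control, as they did for 41.5% of all tested genes. ZEB1 averaged 66.5 ± 4.6 CPM (SD, n = 2) with KMT2D shRNA, a log2 change of 0.50 upward (SE 0.19, edgeR adjusted p = 0.0365). This call was close to the threshold and held in 2 of 11 settings, the fit reported and the one with DESeq2's size factors. With DESeq2's test the adjusted p was 0.349 and with the length trend removed ZEB1 stood at 0.13. Reads of ZEB1-AS1, an antisense gene that overlaps ZEB1, cannot be told apart from it where they overlap, since no strand-marking step is named; it had 24 and 13 counts with KMT2D shRNA and 22 in the control. RefSeq also places antisense genes over CDH2, CDH3, VIM and ZEB2, and none of those is in a table. The nearest patterns to ZEB1, among 4950 genes of similar level, were those of EDEM1 and LRRC8A (distances of 0.00738 and 0.00866).

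ZEB2 was scarce, with 13 and 17 counts with KMT2D shRNA and 35 in the control, or 2.48 and 3.35 CPM against 6.36 CPM. The control was the highest of the 3 libraries. The log2 fold change of -1.12 (SE 0.46) missed the threshold (edgeR adjusted p = 0.0608) and was -1.69 with the length trend removed, which passed (edgeR adjusted p = 0.0164). Library 1 was 0.391 times the control (95% counting interval 0.19 to 0.757) and library 2 was 0.527 times (0.277 to 0.966). ZEB1 exceeded ZEB2 by FPKM 43.9-fold and 29.7-fold with KMT2D shRNA, against 9.93-fold in the control. In counts alone, with no lengths, the ratio of the pair was 3.79 times that of the control in library 1 (95% counting interval 1.91 to 7.96). In library 2 it was 2.55 times (1.35 to 4.97). FPKM also divides by a transcript length, which for ZEB2 differed between libraries.

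The promoter windows of ZEB1 and ZEB2 are set side by side because the values of the pair lay on opposite sides of the control, although no fit called both genes; E-boxes of the form CANNTG are in capitals, and the build and window are those given for CDH2. ZEB1 has 7 windows on the plus strand of chromosome 10, of which 4 hold a CANNTG; the window shown holds the most CAGGTG or CACCTG. ZEB2 has 1 window, on the minus strand of chromosome 2.
ZEB1, chr10:31318966-31319265: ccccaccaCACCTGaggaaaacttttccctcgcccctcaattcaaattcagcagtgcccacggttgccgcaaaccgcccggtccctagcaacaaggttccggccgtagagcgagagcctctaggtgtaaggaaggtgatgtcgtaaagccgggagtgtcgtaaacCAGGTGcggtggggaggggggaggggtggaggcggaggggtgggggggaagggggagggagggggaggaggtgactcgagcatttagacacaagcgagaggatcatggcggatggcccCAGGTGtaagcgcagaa
ZEB2, chr2:144520070-144520369: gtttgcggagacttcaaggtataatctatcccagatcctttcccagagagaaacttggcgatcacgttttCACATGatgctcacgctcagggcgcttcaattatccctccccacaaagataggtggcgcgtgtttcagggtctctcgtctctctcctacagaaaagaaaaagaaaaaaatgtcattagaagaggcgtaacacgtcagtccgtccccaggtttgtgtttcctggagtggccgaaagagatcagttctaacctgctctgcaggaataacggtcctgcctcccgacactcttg
The ZEB1 window holds CACCTG beginning 242 bases before the start and CAGGTG at 85 bases before and at base 34 after it. Of all windows, 0.635% hold 3 or more CAGGTG or CACCTG. The ZEB1 window was chosen as the richest of the 7 in these letters, so that share does not measure how unusual it is, and 5 of the other 6 hold none. Another ZEB1 window holds 1 CAGGTG, 57 bases before its start. The ZEB2 window holds a single E-box, CACATG, 180 bases before the start, and 68.7% of all windows hold a CANNTG. The window of VIM holds none, and no window of the other 6 genes was used here.

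SNAI2, or Slug, a zinc-finger repressor of E-cadherin, had 38.2 and 44.1 CPM with KMT2D shRNA, against 28.7 CPM in the control. The control was the lowest of the 3 libraries, and the log2 fold change of 0.52 (SE 0.21) missed the threshold narrowly (edgeR adjusted p = 0.052). It passed at 0.69 once the length trend was removed (edgeR adjusted p = 0.0266) and at 0.53 with DESeq2's size factors (edgeR adjusted p = 0.0494). SNAI1, or Snail, its relative, had only 25 and 13 counts with KMT2D shRNA and 16 in the control. The KMT2D shRNA libraries lay on either side of the control, at 4.78 and 2.56 CPM against 2.91 CPM, and the log2 fold change was 0.34 (SE 0.56, edgeR adjusted p = 0.688). SNAI2 exceeded SNAI1 per length 6.50-fold and 14-fold with KMT2D shRNA and 8.01-fold in the control.

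TWIST1, a basic helix-loop-helix factor of mesoderm and of EMT, had 18.5 and 21.7 CPM with KMT2D shRNA, against 27.1 CPM in the control. The control was the highest of the 3 libraries, but the log2 fold change of -0.43 (SE 0.22) missed the threshold (edgeR adjusted p = 0.134) and was -0.16 with the length trend removed. ESRP1 had 29 and 22 counts with KMT2D shRNA and 20 in the control, or 5.54 and 4.34 CPM against 3.63 CPM. Its log2 fold change was 0.44 (SE 0.47, edgeR adjusted p = 0.509), and the counting interval of its ratio to the control held 1 in both libraries (0.834 to 2.85 and 0.621 to 2.31). ZEB1, its repressor in other lines, exceeded ESRP1 per length 8.06-fold and 8.60-fold with KMT2D shRNA and 7.86-fold in the control.

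The deposited tables give each gene a transcript length that can differ between libraries where several transcripts are listed. For 7 of the 10 genes the length was the same in all 3 libraries. ZEB2 had 9171 and 9243 bases with KMT2D shRNA against 7803 bases in the control, 18% longer, though on 13 to 35 counts. ZEB1 had 5909 and 5966 bases against 5797 bases, and ESRP1 had 3792 and 3533 bases against 3533 bases. Across 5417 tested genes whose length differed between libraries, the length was greater with KMT2D shRNA for 64.2%, and the median size of the difference was 0.0143 on the log2 scale, against 0.24 for ZEB2 and 0.03 for ZEB1. Of 12 known ESRP splicing targets, 10 had a length that differed between libraries: 3 were longer in both KMT2D shRNA libraries, 4 shorter in both and 3 neither. CTNND1, which encodes p120-catenin, moved most, with 6006 and 5979 bases against 5815 bases, and CD44, a hyaluronan receptor, had 4509 and 4488 bases against 4555 bases.

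Other cadherins, the partners of cadherins and the gene groups that follow were read from lists. Of all tested genes 16.5% rose and 14.5% fell, or 7.99% and 8.45% with the length trend removed. No list was tested against these shares. Of 13 other cadherins 9 were in a table and 6 were tested; 2 rose and 0 fell, and their median was 0.79 on the log2 scale against -0.01 over all tested genes. CDH11, a cadherin of mesenchymal cells and osteoblasts, had 248 and 417 CPM with KMT2D shRNA against 150 CPM in the control and rose by 1.15 in log2 units (SE 0.20; adjusted p = 1.87e-05 in edgeR). Per length it exceeded every cadherin of the 10 genes, with 68.5 and 112 FPKM with KMT2D shRNA and 40.3 FPKM in the control. The increase of CDH11 was 1.03 after removal of the length trend (edgeR adjusted p = 0.00642). CDH12 rose by 1.62 (SE 0.52, edgeR adjusted p = 0.0134) on 38 and 26 counts against 11, and did not pass after removal of the length trend (edgeR adjusted p = 0.0674).

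Of 15 catenins and partners 13 were tested, of which 4 rose and 1 fell (median 0.41). The nectin genes NECTIN1 and NECTIN3, whose products start cell contacts, rose by 0.94 and 0.64, AFDN, which links nectins to actin, by 0.79, and VCL, which encodes vinculin, by 0.50 on the log2 scale; none of these 4 passed with the length trend removed. NECTIN2 fell by 0.99 and still passed at -0.86. The cadherin-bound catenins did not pass: CTNNB1 had 344 and 363 CPM with KMT2D shRNA against 311 CPM, CTNND1 had 331 and 312 CPM against 254 CPM, and JUP had 83.5 and 122 CPM against 102 CPM. CTNNA1, which encodes the alpha-catenin that PC-3 is known to lack, had 14 and 9 counts with KMT2D shRNA and 3 in the control. Its ratio to the control was 4.91 (95% counting interval 1.37 to 26.7) and 3.25 (0.812 to 18.7), and the change missed the threshold (edgeR adjusted p = 0.118).

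Other transcription factors of the mesenchymal state numbered 16, with 11 tested; 4 rose and 0 fell (median 0.09). These were the E proteins TCF3 at 0.82 and TCF4 at 0.50, YBX1 at 0.64 and ETS1 at 0.57. With the length trend removed TCF3 and YBX1 passed. Of 17 epithelial factors 11 were tested (median -0.13). ELF3, an ETS factor of epithelia, had 19.7 and 30.5 CPM with KMT2D shRNA against 77.0 CPM and fell by 1.62 (SE 0.20, edgeR adjusted p = 1.09e-08), while FOXA2 rose by 0.51 (edgeR adjusted p = 0.0267). GRHL2 and OVOL2, which oppose ZEB1 in epithelia, had at most 7 counts in a library.

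Among 11 splicing regulators 10 were tested, of which 4 rose and 0 fell (median 0.46). MBNL1 rose by 0.97, QKI by 0.87, RBFOX2 by 0.69 and SRSF1 by 0.51 on the log2 scale, and MBNL1 alone of them passed with the length trend removed (0.64). ESRP2, the paralog of ESRP1, had 16.1 and 22.5 CPM with KMT2D shRNA against 21.6 CPM (edgeR adjusted p = 0.629). Of the 12 ESRP targets 3 rose in RNA level and 0 fell (median 0.26), namely MAGI1 by 1.35, ENAH by 0.88 and SLK by 0.57; with the length trend removed MAGI1 alone of these passed.

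Unlike CDH1, which did not pass, several epithelial effector genes fell; whether they differ from CDH1 was not tested. Of 29 such genes 25 were tested, of which 0 rose and 9 fell (median -0.30), where 16.5% and 14.5% of all tested genes did. The 4 with the largest decreases were CLDN7 at -1.51 and CLDN4 at -0.92, both tight junction claudins, PKP3, a desmosomal plakophilin, at -1.28, and KRT18 at -0.88. CLDN7 rested on 9 and 23 counts against 49 and did not pass after removal of the length trend (edgeR adjusted p = 0.081). EPCAM, at 19.3 and 16.6 CPM with KMT2D shRNA against 24.5 CPM, did not pass (edgeR adjusted p = 0.127). With the length trend removed 7 of the 25 fell and the median was again -0.30. Of the 9, only CLDN4, PKP3, SPINT2, LLGL2 and KRT18 were among these 7, joined by OCLN and DSP, while CLDN3, KRT8 and KRT19 lost their calls along with CLDN7. The mesenchymal effectors numbered 24, with 20 tested, of which 3 rose and 2 fell (median 0.21, or -0.04 with the length trend removed). FN1, which encodes fibronectin, rose by 2.22, TNC, or tenascin C, by 1.04 (0.47 and no call with the length trend removed) and MSN, or moesin, by 0.76, whereas S100A4 fell by 1.94 and ITGA5 by 0.67 on the log2 scale. MMP2 and FAP had at most 3 counts in a library.

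Among 21 ligands, receptors and SMADs of EMT signalling 19 were tested, of which 7 rose and 1 fell (median 0.43). The largest increases were those of MET, the receptor of hepatocyte growth factor, at 1.10, TGFBR1 at 0.98, the Notch ligand JAG1 at 0.92 and WNT5A at 0.86. ID1, an inhibitor of basic helix-loop-helix factors, had 149 and 210 CPM with KMT2D shRNA against 402 CPM and fell by 1.16 (SE 0.17, edgeR adjusted p = 6.78e-07). With the length trend removed 4 of the 19 rose and 2 fell. MET, JAG1 and TGFBR2 rose in both fits and ID1 fell in both, TGFBR1 (edgeR adjusted p = 0.175) and WNT5A (edgeR adjusted p = 0.104) lost their calls, and ID2 and SMAD2 passed with the trend removed but not before. All 6 tested intermediate filament genes beside VIM passed: NEFL at 0.94, LMNB1 at 0.69, SYNM at 0.68 and LMNB2 at 0.58 rose, and PRPH at -2.51 and LMNA at -0.71 fell. With the length trend removed NEFL, LMNB1, PRPH and LMNA passed, while SYNM (0.21, edgeR adjusted p = 0.518) and LMNB2 (0.34, edgeR adjusted p = 0.184) did not. PRPH rested on 5, 5 and 31 counts.

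**Figure D4:**
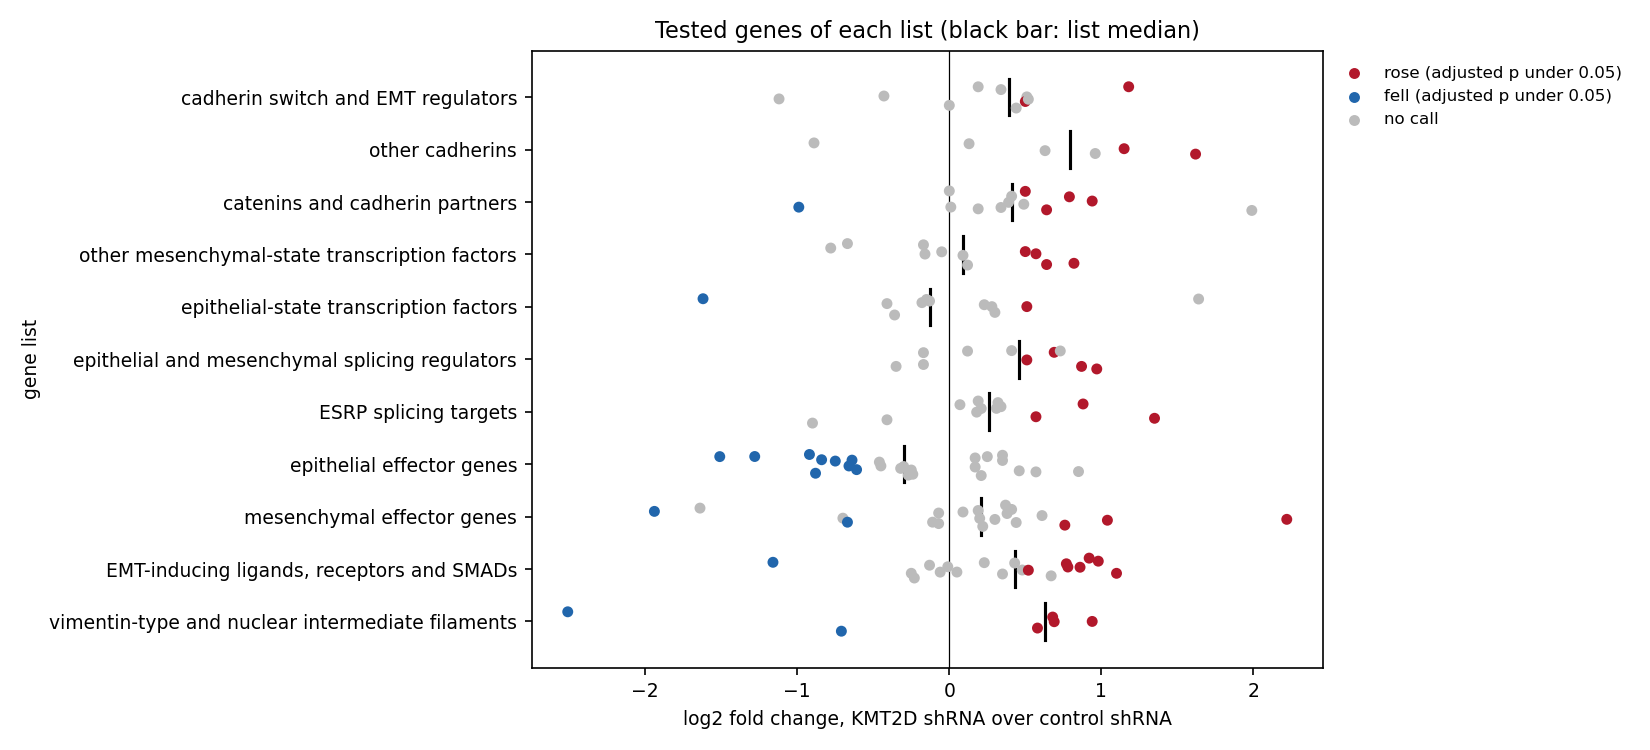
Log2 fold change of KMT2D shRNA over control shRNA (horizontal axis) for the tested genes of each list (vertical axis), coloured by edgeR call, with a black bar at each list's median; the vertical scatter within a list carries no value. The medians are 0.39 for the cadherin switch and EMT regulators and -0.30 for epithelial effector genes, where 9 genes fell and 0 rose.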

How the data were processed

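Polyadenylated RNA of 3 PC-3 libraries was sequenced on a BGISEQ-500, per the labels. The submitters' processing notes name hg19, HISAT and Bowtie2; neither their versions and roles nor the counting tool is given in the sources used here. Per the file headers, the authors deposited for each library an expected count per gene, an FPKM value and a transcript length. Expected counts were rounded to whole numbers, and genes absent from one of the tables entered it with a count of 0. Names came from a RefSeq table of GRCh38.p14 (18214 of 18331 identifiers matched directly and 28 through a transcript). Differences were tested by edgeR's quasi-likelihood test (version 4.0.16, R 4.3.3) after its default low-count filter and TMM scaling, with Benjamini-Hochberg adjustment over 14016 genes and a threshold of 0.05. The fit leaves 1 residual degree of freedom, set against 45.7 prior degrees of freedom pooled over genes. The spread used for a gene thus comes mostly from the other genes, not from its own 2 libraries. SEs are derived from F. The fit was tested on simulated data with 200 of 13807 genes changed. There it recovered 8% of 1.5-fold increases, 78% of 2-fold increases and 68% of 0.5-fold changes. The simulation gave every gene the same dispersion and held no length trend, and far more genes passed in the real data. These shares are therefore only a rough guide and not the power of this design. A missed threshold is no sign that a gene was unchanged. Intervals are exact at 95% and cover counting error only, since reads without molecular identifiers are not independent molecules; 3 counts were 0.54 to 0.586 CPM. Length and GC trends were removed by lowess offsets per library. DESeq2 1.42.0 and limma 3.58.1 on log2(FPKM + 1) or log2(FPKM + 0.1) were alternatives. The genes and lists were chosen with earlier results of these data known. Named genes were the 10 genes, KMT2D and, on each list, up to 4 past the threshold in each direction, with others named for their role; patterns were compared by distance in centred log2 CPM among genes within 2-fold in mean CPM.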

Additional observations from a re-analysis of the deposited data

How the results depend on the processing

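The count of all genes past the threshold was 4350; it was 1897 without a filter on low counts, 2305 with the length trend removed, 1286 with length and GC trends removed, 1178 with DESeq2 and 0 in each of 3 limma settings on FPKM, with 4215 to 4568 genes at an unadjusted p under 0.05. Of the 10 genes 2 passed. The number was 1 with library totals, without a filter, at a mean of 5 CPM or more and with DESeq2, CDH2 in each case, and 0 in the 3 limma settings. With DESeq2's size factors in edgeR it was 3 (CDH2, ZEB1 and SNAI2). With length and GC trends removed CDH2 (0.89, edgeR adjusted p = 0.0204) and ZEB2 (-1.79, 0.0474) passed. Over all fits the adjusted p ran from 2.86e-06 to 0.174 for CDH2, from 0.0345 to 0.924 for ZEB1 and from 0.0266 to 0.435 for SNAI2. ZEB2 had an adjusted p in only 7 of the 11 settings, where it ran from 0.0164 to 0.175. Without library 1 or library 2 a change has no test; those of CDH2 were 1.08 and 1.26. Counts of 13 to 39 limit SNAI1, ESRP1, CDH3 and ZEB2. No paired analysis was possible because the control has 1 library and its label carries no number.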
